A study of Mus musculus with 18 samples.

Results

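The receptors for the transmitters glutamate and GABA were described in clonal lines of mouse oligodendrocyte progenitor cells (OPCs). Members were taken by name: protein-coding rows of the expression table whose gene name starts with Gria, Grid, Grik or Grin, is that of a metabotropic receptor (Grm and a number), or starts with Gabr or Gabbr. This gave 49 genes of 38046 in the table, from 118 transcript rows that were summed by gene. Of the 49, 2 match the name pattern without being receptor subunits, namely Grina and Grid2ip. The series compared 3 control clones (D7, D3 and E8) with 3 Thap1 null clones (3F, D6 and 7F), all OPC lines derived from primary neural stem cells. THAP1 is a zinc-finger transcription factor. Each clone was sampled as OPCs in growth medium with the mitogen PDGF-AA, and after 2 and 4 days (DIV2 and DIV4) in oligodendrocyte differentiation medium with 40 μg/ml of the thyroid hormone T3. The 18 libraries of total RNA form 6 groups of 3 clones. The labels do not give the null allele or its parent line. A group stands for 3 lines with a single library per clone and stage. The spread behind the p-values thus mixes clone, culture and library, and it is pooled over the 6 groups. DIV2 and DIV4 are compared with the same OPC libraries within a genotype, and medium, T3 and time change together.

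Glutamate acts on tetrameric ion channels of the AMPA, kainate and NMDA types, on the related delta proteins, and on G-protein-coupled metabotropic receptors. GABA acts on GABA-A channels, pentamers that conduct chloride, and on GABA-B receptors, which are G-protein-coupled and need a pair of different subunits. OPCs are known to carry AMPA, kainate and GABA-A receptors and to receive synapses from neurons in the brain, and these properties decline as the cells mature.

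All levels below are rescaled TPM, the deposited TPM (an abundance corrected for transcript length and for the library's total) divided by a scaling factor for each library (median of ratios over 20407 features above 0 in every library). The rescaling matters most for the control OPCs, in which protein-coding rows held 5.05% to 9.0% of the deposited TPM and 3 noncoding features held 64.8% to 88.0%. Their factors were 0.141 to 0.308, against 0.708 to 2.07 in the other libraries. In null OPCs the same 3 features held 34.8% in D6 (factor 0.708), 0.789% in 3F and 1.06% in 7F. Control OPC libraries had 54031 to 59435 transcripts above 0, and the other libraries 65662 to 70964. Rescaling leaves a value of 0 at 0, which limits comparisons of low genes with control OPCs. On the deposited scale the median of all features tested was 1.36 higher in null than in control OPCs (log2), and 1.80 and 1.87 higher in control DIV2 and DIV4 than in control OPCs. The targeted gene, Thap1, read 4.15, 4.53 and 3.00 in control OPCs (D7, D3 and E8), 1.95, 2.47 and 2.79 at DIV2 and 3.64, 2.81 and 2.26 at DIV4. In null (3F, D6 and 7F) it read 0.449, 0.793 and 0.583, then 0.345, 0.636 and 0.679, and 0.462, 0.750 and 0.196, so that the genotypes did not overlap on the rescaled scale. Its log2 difference, null minus control, was -1.60 in OPCs, -1.13 at DIV2 and -1.41 at DIV4 (limma, adjusted p = 0.000256, 0.00642 and 0.00109). On deposited values it was -0.30 in OPCs (limma, adjusted p = 0.329), where the median of all features was 1.36. At DIV2 and DIV4 it was -1.42 and -1.77 on that scale (adjusted p = 0.0135 and 0.00174). Sequencing depth is unknown for TPM, so no counting error is given.

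Receptor transcripts formed a limited set. A mean of at least 1 in any group was reached by 21 genes, while 27 stayed under 1 in every library. AMPA, kainate and GABA-A subunits were present at every stage, and most NMDA subunits were close to 0. In control OPCs the summed level was 36.2 ± 8.74 (SD, n = 3) for AMPA subunits, 23.0 ± 0.823 for kainate and 2.68 ± 1.08 for NMDA subunits. It was 13.5 ± 6.91 for metabotropic glutamate receptors, 16.9 ± 2.32 for GABA-A and 5.84 ± 2.58 for GABA-B subunits. TPM is corrected for length, so these levels can be set side by side. The metabotropic sum stood farthest apart between the genotypes after differentiation. In control it was 34.9 ± 11.6 at DIV2 and 42.8 ± 16.1 at DIV4, and in null 7.56 ± 5.5 and 4.24 ± 1.78. In OPCs it was 13.5 ± 6.91 against 3.18 ± 1.26 on the rescaled scale and 2.96 ± 0.353 against 3.16 ± 0.751 on the deposited scale. The kainate sum was 24.7 ± 1.54 and 23.9 ± 4.44 in control at DIV2 and DIV4, against 18.1 ± 0.554 and 17.6 ± 0.503 in null. These sums are descriptions without a test. In bulk RNA, fewer cells of a type and less RNA per cell cannot be told apart.

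**Figure D1:**
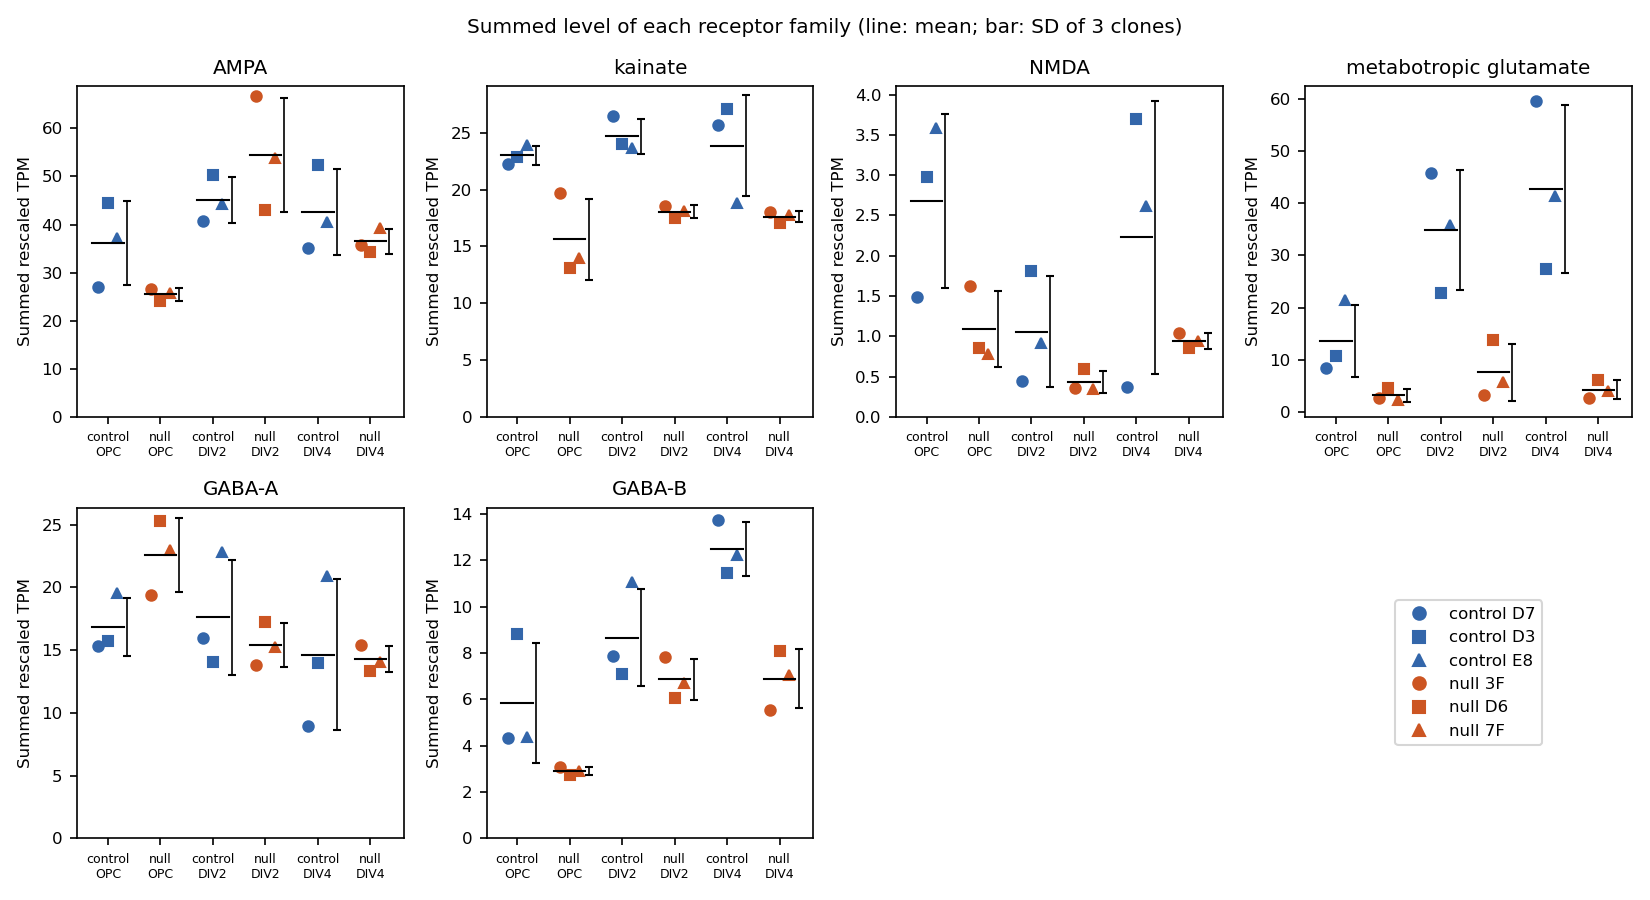
Summed rescaled TPM of 6 receptor families (y axis) in the 6 groups (x axis). Each point is the library of 1 clone, the line is the mean and the bar the SD of 3 clones; on this scale the metabotropic sums of the 3 control clones lie above those of the 3 null clones at each stage.

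Each family rested on few members. In control OPCs, Gria2 made up 55.8% of the AMPA sum, Grik3 44.9% of the kainate sum, Grm5 97.2% of the metabotropic sum and Gabbr1 96.4% of the GABA-B sum. After Grina, which is not a receptor subunit, the highest levels in control OPCs were Gria2 (20.2 ± 8.32), Grm5 (13.1 ± 7.02), Gria4 (12.4 ± 9.90) and Grik3 (10.3 ± 0.770). Neighbours in this order lay within the larger SD of the pair. In null OPCs the order began with Gria2 (11.2 ± 1.43), Gria4 (10.7 ± 0.785) and Gabrg1 (9.59 ± 2.27), and Grik3 and Grm5 were at 3.79 ± 1.47 and 2.59 ± 1.04.

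**Figure D2:**
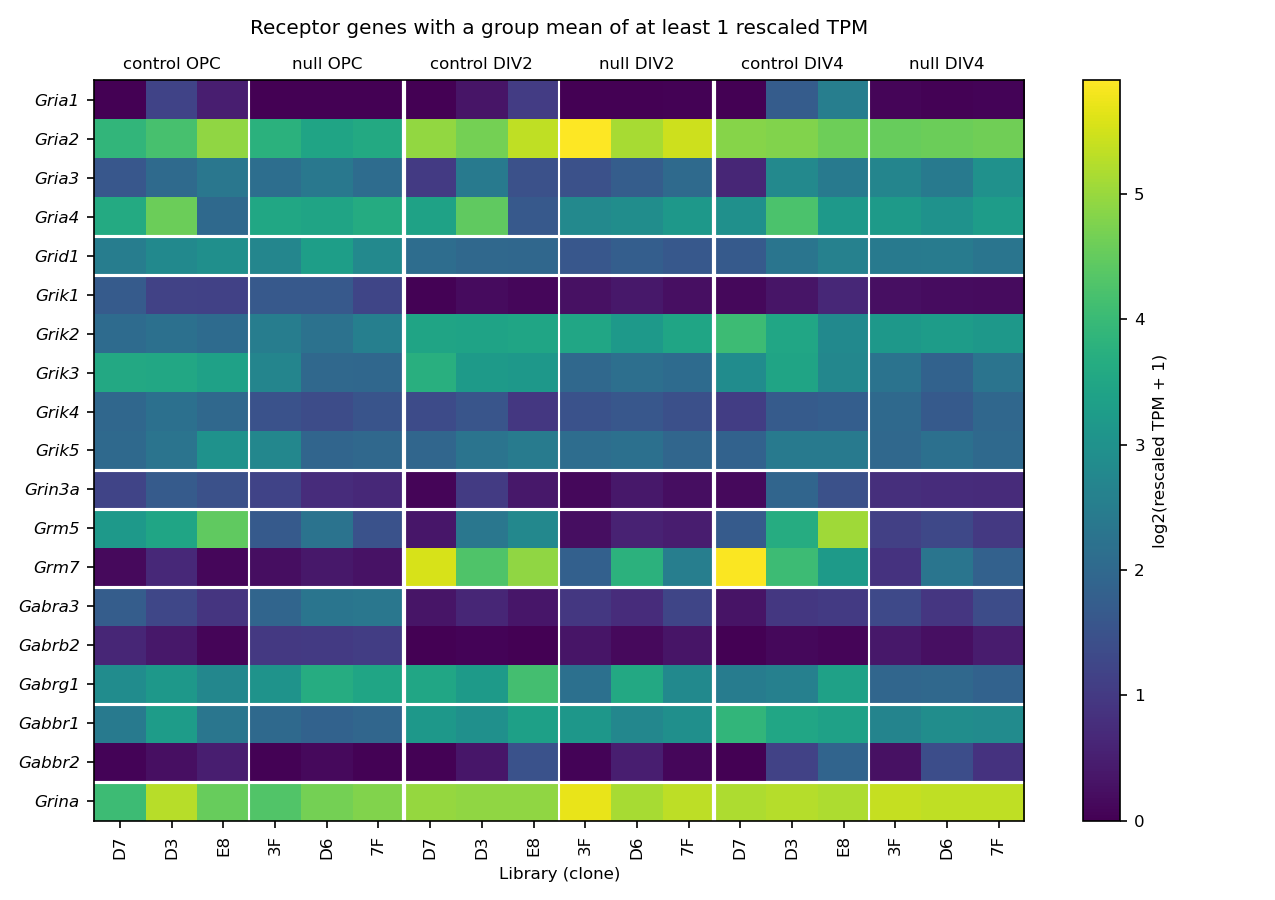
Level of 19 of the 21 receptor genes with a group mean of at least 1 (rows, grouped by family) in each library (columns, by genotype, stage and clone), as log2(rescaled TPM + 1). Gria2 and Grina are among the brightest rows in all groups, Grm7 appears at DIV2 and DIV4, and Grik1 is seen mainly in the OPC libraries.

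Tests used limma on log2(rescaled TPM + 1), fitted to the 15525 features with a mean of at least 1 over the 18 libraries, and a gene is called when its adjusted p (Benjamini-Hochberg over those features) is under 0.05. This scale understates the change of low genes. Of the 49 members 16 passed the filter on low values. Between the genotypes 2 of the 16 were called in OPCs, where 9.68% of all features were called. Grik3 was lower in null (4.44% of all features) and Gabra3 higher (5.24%). Gabra3 passed the filter only through the null OPC libraries, where it was highest. At DIV2 Grik3 was called, where 2.04% of all features were called and 0.786% were lower in null. At DIV4 Grik3 and Grm7 were called, both lower in null, where 3.63% of all features were called and 1.39% were lower. With differentiation, control had 7 members called at DIV2 (30.8% of all features), 3 higher (17.8%) and 4 lower (13%). Control had 5 at DIV4 (27.9%), 4 higher (15.2%) and 1 lower (12.7%). Null had 8 called at DIV2 (22.7%), 6 higher (12.5%) and 2 lower (10.2%), and 6 at DIV4 (28.5%), 4 higher (14.9%) and 2 lower (13.6%). The 16 tested members had median log2 changes of -0.17, -0.09, -0.12 and 0.40 in these 4 comparisons, and all features 0.08, 0.06, 0.02 and 0.01. On deposited TPM, where 17 members passed the filter, those called between the genotypes were 12 in OPCs (77.9% of all features) and 1 at DIV4 (2.69%), and those called in control were 13 at DIV2 (84%) and 16 at DIV4 (88.8%).

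The change with differentiation was not called as different between the genotypes for any of the 16 members. The interaction (change in null minus change in control) was called by limma for 0 members at DIV2 (0.296% of all features) and 0 at DIV4 (1.96%). At an unadjusted p under 0.05 there were 4 and 3 members. The share of all features under that unadjusted threshold is not reported here, for these or later counts. On deposited TPM the interactions were called for 11 (67.7% of all features) and 12 (69%). From DIV2 to DIV4, a comparison added after the values were seen, 0 members were called in control (0.167% of all features) and 0 in null (1.26%), with 3 and 4 at an unadjusted p under 0.05. Leaving out control clone D7 gave 6 members called between the genotypes in OPCs (15.6% of all features) and 2 at control DIV4 (14.7%). Leaving out null clone 7F gave 0 members called between the genotypes in OPCs (1.88%), at DIV2 (0.638%) and at DIV4 (0.618%), and 4 at null DIV2 (8.87%) and 0 at null DIV4 (13.1%). Without D6 the counts in null were 4 at DIV2 (11%) and 1 at DIV4 (14.6%), and without 3F 5 (8.59%) and 4 (16.5%). With only the libraries compared in the fit, no member was called between the genotypes in OPCs or at DIV4, nor at control DIV4. The share of all features called in that run is not reported here, so these counts are not a result about the receptors.

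**Figure D3:**
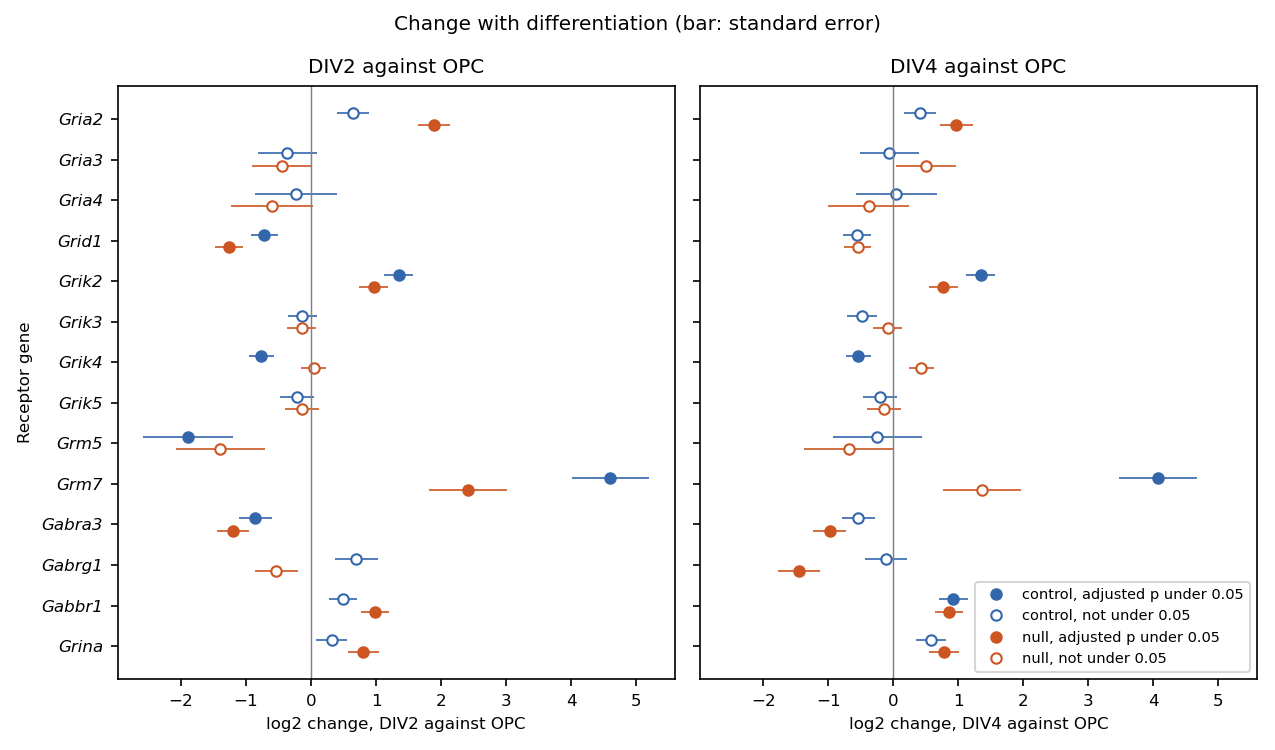
Log2 change from OPC to DIV2 (left) and DIV4 (right) of 14 of the 16 tested members (y axis), with control in blue, null in orange and bars for the standard error; filled points have an adjusted p under 0.05. Grm7 lies farthest to the right in control, and Grik2 lies to the right of 0 in both genotypes.

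Among AMPA subunits Gria2 had the highest mean in each group, close to Gria4 in null OPCs (44.0% and 41.8% of the AMPA sum). It encodes GluA2, the subunit whose edited form makes the channel nearly impermeable to calcium. Gria2 (chr3:80681450-80802835, minus strand, GRCm38) read 13.7, 17.3 and 29.6 in control OPCs (D7, D3 and E8) and 12.7, 9.87 and 11.1 in null OPCs (3F, D6 and 7F). At DIV2 it read 30.1, 24.4 and 39.3 in control and 59.0, 34.2 and 42.9 in null, and at DIV4 27.7, 26.5 and 23.5 in control and 22.1, 22.8 and 23.7 in null. The 3 null clones lay above their OPC level at both times, while control E8 was below its OPC level at DIV4. In null the rise was 1.90 at DIV2 (log2, SE 0.25; limma, adjusted p = 0.000138) and 0.97 at DIV4 (adjusted p = 0.0091). In control the change was 0.65 at DIV2 (limma, adjusted p = 0.0601, and 0.0481 with the clone as a block) and 0.41 at DIV4 (adjusted p = 0.236). The change at DIV2 differed between the genotypes by 1.25 (SE 0.35; limma, adjusted p = 0.139). The call in null at DIV4 was lost without D6 (limma, adjusted p = 0.0803) or 7F (adjusted p = 0.0981), and without D7 Gria2 was called lower in null OPCs (log2 difference -0.96; adjusted p = 0.0333). An annotated small gene, Gm25749, overlaps its exons on the same strand.

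AMPA subunits exist in a flip and a flop form, set by a choice between 2 neighbouring coding exons of equal length, and the forms differ in how fast the channel desensitizes. The deposited table lists a transcript of each form for Gria2 and for Gria4, so the exons are shown, from GENCODE M21 on GRCm38, 5′ to 3′ on the coding strand. Capitals mark the bases that differ between the 2 exons of a gene, 36 of 115 in Gria2 and 31 of 115 in Gria4. The Gria2 exons lie at chr3:80690404-80690518 (flip) and chr3:80691320-80691434 (flop), and those of Gria4 at chr9:4427030-4427144 (flip) and chr9:4432773-4432887 (flop), all on the minus strand.
Gria2 flip exon: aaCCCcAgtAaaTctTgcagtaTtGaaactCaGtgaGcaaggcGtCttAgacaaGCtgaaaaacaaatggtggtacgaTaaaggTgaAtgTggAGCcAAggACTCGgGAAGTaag
Gria2 flop exon: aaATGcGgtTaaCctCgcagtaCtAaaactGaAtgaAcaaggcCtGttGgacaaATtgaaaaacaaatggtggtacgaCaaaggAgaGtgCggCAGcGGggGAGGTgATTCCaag
Gria4 flip exon: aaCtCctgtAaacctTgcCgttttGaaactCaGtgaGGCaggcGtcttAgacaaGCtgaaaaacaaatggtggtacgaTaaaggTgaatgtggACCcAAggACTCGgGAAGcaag
Gria4 flop exon: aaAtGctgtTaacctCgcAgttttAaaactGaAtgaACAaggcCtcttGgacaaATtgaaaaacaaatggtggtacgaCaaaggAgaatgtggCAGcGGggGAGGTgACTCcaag

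The flip transcript was the larger of the pair in each of the 18 libraries for both genes. For Gria2 its share of flip plus flop was 72.3% ± 11.6 (SD, n = 3) in control OPCs and 66.9% ± 4.58 in null OPCs. It was 81.2% ± 6.10 in control and 77.7% ± 1.62 in null at DIV2, and 82.3% ± 6.07 and 79.7% ± 2.84 at DIV4. In the null clones the shares at DIV2 (76.0% to 79.2%) and DIV4 (77.3% to 82.8%) did not overlap those in OPCs (61.7% to 70.2%), and in control they did. For Gria4 the flip share was 69.1% ± 15.04 in control OPCs, from 55.5% to 85.3%, and 83.9% ± 2.08 in null OPCs. At DIV4 it was 88.7% ± 5.23 in control and 87.6% ± 1.96 in null. These shares do not depend on the scaling, but they compare estimates for whole transcripts, not reads over the exons, and were not tested.

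**Figure D4:**
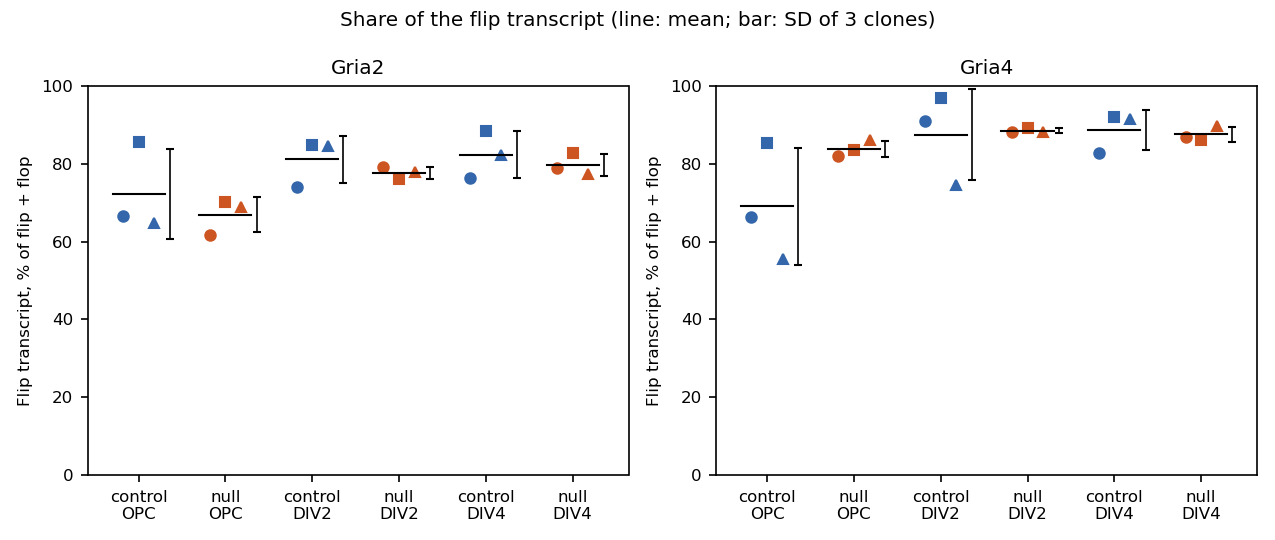
Share of the flip transcript in the sum of the flip and flop transcripts (y axis, percent) for Gria2 and Gria4 in the 6 groups. Points are libraries (circles D7 and 3F, squares D3 and D6, triangles E8 and 7F), lines are means and bars the SD of 3 clones; the Gria4 shares of the control OPC libraries spread from 55.5% to 85.3%.

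The other AMPA subunits differed more between control clones than between genotype means. Gria4, which encodes GluA4, read 11.3, 22.8 and 3.06 in control OPCs (D7, D3 and E8), 9.66, 21.2 and 2.11 at DIV2 and 6.75, 17.7 and 7.99 at DIV4. Clone D3 was the highest at each stage, and E8 the lowest in OPCs and at DIV2. The null clones read 9.96 to 11.5 in OPCs, 5.90 to 7.83 at DIV2 and 7.08 to 8.60 at DIV4. Gria3 (GluA3) had group means between 2.40 ± 1.79 (control DIV2) and 5.59 ± 1.27 (null DIV4). Neither Gria3 nor Gria4 was called in any comparison. Gria1, which encodes GluA1, did not pass the filter, and its values in every library are given because they were seen to follow the clone. It read 0, 1.27 and 0.418 in control OPCs, 0, 0.262 and 1.08 at DIV2 and 0.0111, 2.32 and 4.72 at DIV4. Control D7 was at or near 0 at each stage, and no null library was above 0.0591.

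Grid1 encodes the delta receptor GluD1, which binds extracellular partners at synapses, and it was lower at DIV2 than in OPCs on the rescaled scale. Its level was 5.77 ± 1.03 in control OPCs and 3.09 ± 0.218 at DIV2, and 6.78 ± 1.91 in null OPCs and 2.18 ± 0.197 at DIV2. The change was -0.72 in control (limma, adjusted p = 0.019) and -1.26 in null (adjusted p = 0.00076). On deposited values the control change was 1.27, where the median of all features was 1.80. With every library scaled to the same protein-coding total, the control change was -0.25 (limma, adjusted p = 0.492). The control call was lost without D3 (limma, adjusted p = 0.0871) or E8 (adjusted p = 0.103). The null call was lost on deposited values (limma, adjusted p = 0.0605). At DIV4 Grid1 stood at 3.73 ± 1.45 in control and 4.22 ± 0.280 in null (limma, adjusted p = 0.0625 and 0.0642 against OPC, and 0.0416 and 0.0431 with the clone as a block).

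Among the kainate receptors, Grik3 was the member that separated the genotypes. Grik3 encodes GluK3, a low-affinity subunit able to form channels on its own. Grik3 (chr4:125490700-125714173, plus strand) read 10.8, 10.7 and 9.45 in control OPCs (D7, D3 and E8) and 5.49, 2.96 and 2.92 in null OPCs (3F, D6 and 7F). At DIV2 it read 12.2, 8.38 and 7.95 in control and 2.99, 3.49 and 3.18 in null, and at DIV4 6.34, 9.92 and 5.61 in control and 3.78, 2.62 and 3.84 in null. At each stage the lowest control clone lay above the highest null clone, and the ratio of the means was 2.73, 2.95 and 2.14. The log2 difference, null minus control, was -1.28 in OPCs (SE 0.23; limma, adjusted p = 0.00337), -1.29 at DIV2 (adjusted p = 0.00614) and -0.89 at DIV4 (adjusted p = 0.0437). On deposited values the difference in OPCs was 0.46 (limma, adjusted p = 0.295) where the median of all features was 1.36, and at DIV2 and DIV4 it was -1.51 and -1.12 (adjusted p = 0.081 and 0.193). The OPC and DIV2 calls were lost without 7F (limma, adjusted p = 0.0561 and 0.0697). The call at DIV4 was lost without any single clone, with an adjusted p of 0.0505 (D7), 0.124 (D3), 0.0562 (E8), 0.0996 (3F), 0.169 (D6) and 0.185 (7F) in limma. It was also lost with protein-coding scaling (limma, adjusted p = 0.16), without the filter (adjusted p = 0.0763) and with factors from abundant coding features (adjusted p = 0.0707). Grik3 did not change with differentiation by a called amount in either genotype (log2 changes from -0.48 to -0.09).

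**Figure D5:**
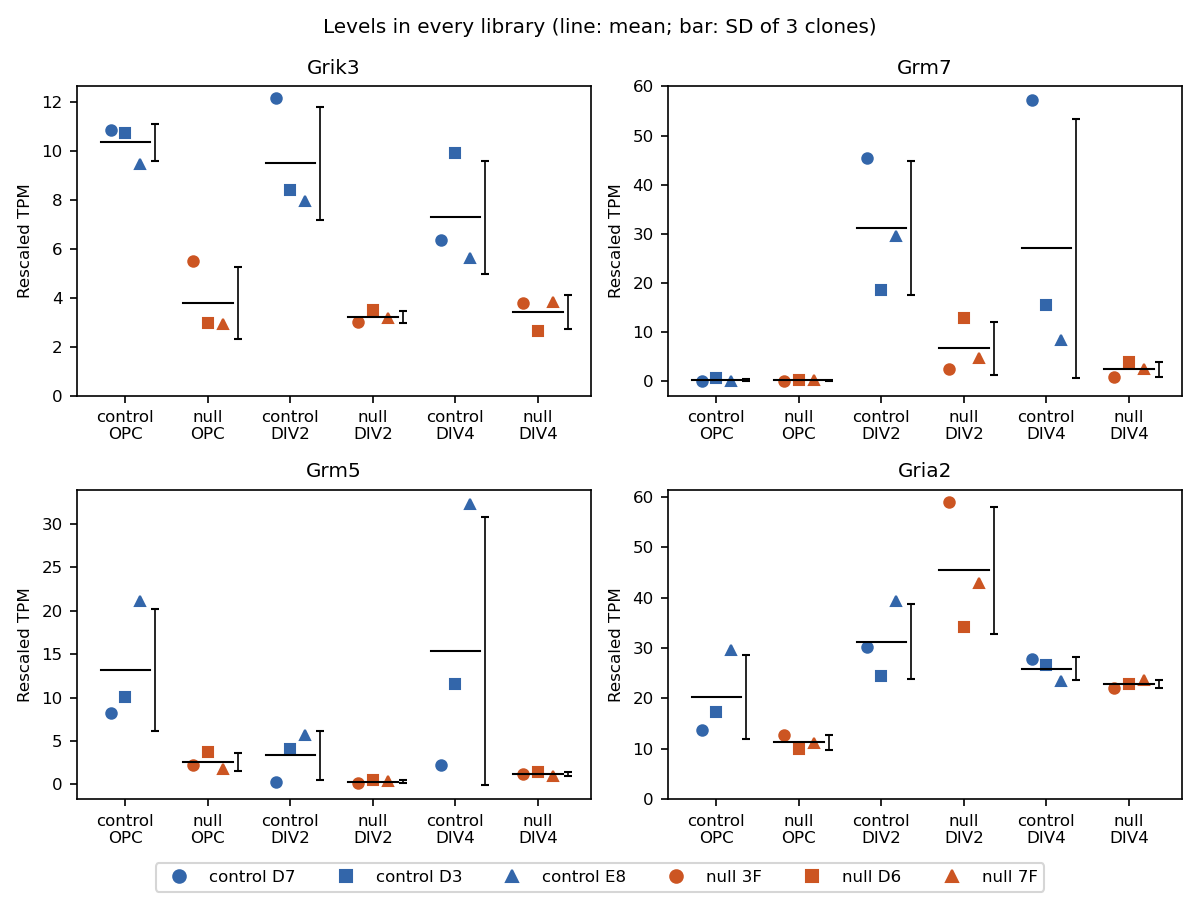
Rescaled TPM (y axis) of Grik3, Grm7, Grm5 and Gria2 in the 6 groups; points are clones, lines are means and bars the SD of 3 clones. Grik3 separates the genotypes at each stage on this scale, while for Grm7 and Grm5 the control clones spread widely at DIV4.

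Because THAP1 binds DNA at promoters, the sequence upstream of the 3 members called between genotypes, Grik3, Grm7 and Gabra3, is shown. The windows are from RefSeq on GRCm38.p6 and hold up to 250 bases before the start site, 5′ to 3′ on the gene's strand. They were searched on both strands for TNNGGGCA, a core of the THAP1-binding sequence, and for AGGTCA, the half-site of thyroid hormone receptors. Capitals mark a match. TNNGGGCA occurs in 11.9% and AGGTCA in 14.0% of the 32851 RefSeq windows of 250 bases. RefSeq windows were found for 33 of the 49 members, and 6 of these hold TNNGGGCA (Gabra2, Gabra3, Gabra5, Gabrr3, Grid2ip and Grin2c) and 2 AGGTCA (Gabrr3 and Grin2c). The window of Gabra3 holds a single TNNGGGCA match, on the strand opposite to the gene, and those of Grik3 and Grm7 hold neither motif. The Gabra3 window ends where the annotated gene starts. A match or its lack describes the letters of these windows and says nothing about binding. They lie at chrX:72656849-72657057 (Gabra3, minus strand), chr4:125490446-125490695 (Grik3, plus strand) and chr6:110645262-110645511 (Grm7, plus strand, the first of 2 RefSeq entries).
Gabra3 upstream: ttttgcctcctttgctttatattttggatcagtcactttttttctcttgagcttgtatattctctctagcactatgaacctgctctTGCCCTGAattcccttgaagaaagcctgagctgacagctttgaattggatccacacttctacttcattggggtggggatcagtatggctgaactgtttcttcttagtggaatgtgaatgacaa
Grik3 upstream: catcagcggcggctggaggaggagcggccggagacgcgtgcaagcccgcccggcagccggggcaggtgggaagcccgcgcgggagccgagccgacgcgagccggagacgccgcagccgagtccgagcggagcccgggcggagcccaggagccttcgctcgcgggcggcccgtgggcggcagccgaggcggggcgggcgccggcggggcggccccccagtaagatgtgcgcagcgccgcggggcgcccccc
Grm7 upstream: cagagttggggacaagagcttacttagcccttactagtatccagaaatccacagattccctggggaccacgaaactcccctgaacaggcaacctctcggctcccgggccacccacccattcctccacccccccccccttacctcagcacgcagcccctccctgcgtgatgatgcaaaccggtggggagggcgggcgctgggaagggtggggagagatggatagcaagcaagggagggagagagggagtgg

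Grik2, which encodes GluK2, the main low-affinity kainate subunit, rose in both genotypes. Grik2 (chr10:49094833-49788766, minus strand) read 3.19, 3.55 and 3.16 in control OPCs, 9.90, 9.74 and 10.1 at DIV2 and 15.5, 10.3 and 5.93 at DIV4. In null it read 4.68, 3.66 and 4.85 in OPCs, 10.3, 8.17 and 10.2 at DIV2 and 7.94, 8.54 and 7.91 at DIV4. No differentiated library fell into the range of the OPC libraries of its genotype. The rise was 1.35 at DIV2 and 1.34 at DIV4 in control (log2, SE 0.22; limma, adjusted p = 0.000523 and 0.000735) and 0.97 and 0.77 in null (adjusted p = 0.00587 and 0.018). Both null calls were lost without any single null clone, with limma adjusted p of 0.0742, 0.0529 and 0.0655 at DIV2 and 0.0887, 0.172 and 0.0926 at DIV4 without 3F, D6 and 7F.

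Grik1, which encodes GluK1, was an OPC-stage transcript and too low on average to pass the filter. It stood at 1.57 ± 0.584 in control OPCs and 1.87 ± 0.447 in null OPCs. At DIV2 it was at 0.0772 ± 0.0544 and 0.233 ± 0.0622, and at DIV4 at 0.310 ± 0.239 and 0.156 ± 0.0333. In the fit without a filter on low values, which called 12.6% and 11.3% of all features in control and 9.06% and 11.9% in null at DIV2 and DIV4, Grik1 was lower at DIV2 and DIV4 than in OPCs by a called amount in both genotypes (log2 changes of -1.23 and -0.96 in control and -1.21 and -1.30 in null; limma, adjusted p from 0.0003 to 0.00313).

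The remaining kainate genes encode the high-affinity subunits, which assemble with the low-affinity ones. Grik4 (GluK4) was 3.15 ± 0.308 in control OPCs, 1.47 ± 0.493 at DIV2 and 1.91 ± 0.697 at DIV4. Null stood at 1.76 ± 0.160, 1.84 ± 0.162 and 2.72 ± 0.470. The control change was -0.76 at DIV2 (limma, adjusted p = 0.00812) and -0.54 at DIV4 (adjusted p = 0.0485, and 0.0523 with the clone as a block), and on deposited values it was 0.85 and 1.20, where the medians of all features were 1.80 and 1.87. With every library scaled to the same protein-coding total, the changes were -0.47 at DIV2 (limma, adjusted p = 0.285) and -0.07 at DIV4 (adjusted p = 0.909). The DIV2 call was lost without E8 (limma, adjusted p = 0.0605), and the DIV4 call without D7 (adjusted p = 0.245), D3 (adjusted p = 0.076) or any null clone (adjusted p from 0.0767 to 0.102). Without D7 Grik4 was called lower in null OPCs (log2 difference -0.63; limma, adjusted p = 0.0397). Grik5 (GluK5) had group means of 3.20 ± 0.302 to 4.65 ± 2.13 and was not called in any comparison.

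NMDA receptor transcripts were scarce in these lines. Grin1, which encodes the subunit that every NMDA receptor needs, was at most 0.518 in any library. Of the 7 NMDA genes, none passed the filter, and Grin3a, which encodes GluN3A, was the member with a group mean of at least 1. Grin3a read 1.32, 2.25 and 1.76 in control OPCs, 0.0538, 1.03 and 0.301 at DIV2 and 0.110, 2.80 and 1.74 at DIV4. Clone D7 was the lowest control clone at each stage. In null the means were 0.859 ± 0.370, 0.189 ± 0.107 and 0.689 ± 0.0470. Grin2a reached 1.04 in control E8 OPCs and shares 42.7% of its 31-base words with other genes, so its value is uncertain. The highest library values of the others were 0.0110 (Grin2c), 0.0676 (Grin2b), 0.142 (Grin2d) and 0.237 (Grin3b).

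Of the metabotropic receptors, Grm7 appeared with differentiation. It encodes mGlu7, which couples to inhibitory G proteins and has a low affinity for glutamate. Grm7 (chr6:110645581-111567230, plus strand) was at most 0.596 in the 6 OPC libraries. At DIV2 it read 45.5, 18.5 and 29.6 in control (D7, D3 and E8) and 2.51, 12.8 and 4.73 in null (3F, D6 and 7F). At DIV4 it read 57.2, 15.5 and 8.33 in control and 0.814, 3.87 and 2.54 in null. Every differentiated library lay above every OPC library, and at both times the lowest control clone lay above the highest null clone. The log2 rise in control was 4.61 at DIV2 (SE 0.60; limma, adjusted p = 0.000102) and 4.07 at DIV4 (adjusted p = 0.000351). In null it was 2.41 at DIV2 (limma, adjusted p = 0.00931) and 1.36 at DIV4 (adjusted p = 0.105). The null call at DIV2 was lost without D6 (limma, adjusted p = 0.0996) or 7F (adjusted p = 0.0774).

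Between the genotypes the Grm7 means differed 4.66 times at DIV2 and 11.2 times at DIV4. The log2 difference, null minus control, was -2.21 at DIV2 (SE 0.60; limma, adjusted p = 0.083) and -2.72 at DIV4 (adjusted p = 0.0214). On deposited values it was -2.44 and -3.01 (limma, adjusted p = 0.0138 and 0.00198). The DIV4 call was lost without D7 (log2 difference -1.98; limma, adjusted p = 0.0552), 3F (adjusted p = 0.145) or 7F (adjusted p = 0.157). The interactions were -2.20 at DIV2 and -2.70 at DIV4 (SE 0.85; limma, adjusted p = 0.278 and 0.107), so the rise itself was not called as smaller in null. The 2 long transcripts, ENSMUST00000071076 and ENSMUST00000172951, stood at 13.5 and 10.6 in control and 3.25 and 2.32 in null at DIV2. An antisense gene, Gm20387, overlaps Grm7 exons.

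Markers of mature oligodendrocytes are given beside Grm7. Of 12 such markers 10 were tested. Between the genotypes limma called 0 at DIV2 (2.04% of all features), with 2 at an unadjusted p under 0.05. At DIV4 it called 2, both lower in null, where 1.39% of all features were lower. The median log2 difference of the markers at DIV4 was -1.36. Their sum was 2828 to 4519 in control and 2223 to 2730 in null at DIV2. At DIV4 it was 1546, 1911 and 8480 in control, lowest to highest, and 1515 to 2239 in null, so that the genotypes overlapped. Mbp, which encodes myelin basic protein, was picked from the 12 after the values were seen. It read 4621, 873 and 650 in control DIV4 (D7, D3 and E8) and 86.0, 555 and 120 in null DIV4 (3F, D6 and 7F). This is the same order of clones as for Grm7 within each genotype. The clone order of the other markers is not reported here. The part of oligodendrocyte content in the Grm7 difference was not tested.

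Grm5, which encodes mGlu5, coupled to phospholipase C, was the main metabotropic gene of OPCs. Grm5 (chr7:87584168-88134907, plus strand) is given in every library because its spread was noticed in the values. It read 8.18, 10.03 and 21.2 in control OPCs and 2.20, 3.77 and 1.80 in null OPCs. At DIV2 it read 0.284, 4.05 and 5.72 in control and 0.160, 0.469 and 0.385 in null, and at DIV4 2.22, 11.5 and 32.3 in control and 1.19, 1.42 and 0.979 in null. The genotypes did not overlap in OPCs or at DIV4, but at DIV2 control D7 lay within the null range. The log2 difference was -1.90 in OPCs, -1.40 at DIV2 and -2.34 at DIV4 (SE 0.69; limma, adjusted p = 0.0918, 0.433 and 0.0789). Without control D7 the differences were -2.16, -2.13 and -3.22 (limma, adjusted p = 0.00538, 0.0146 and 0.00104). On deposited values the OPC difference was -0.12 (limma, adjusted p = 0.895). In control the change at DIV2 was -1.90 (limma, adjusted p = 0.0495), which was 0.30 on deposited values, where the median of all features was 1.80. That call was lost without D3 (limma, adjusted p = 0.0777) or any null clone (adjusted p from 0.0877 to 0.0946), with protein-coding scaling (adjusted p = 0.132) and without the filter (adjusted p = 0.112). In null the DIV2 change was -1.39 (limma, adjusted p = 0.169, and 0.0133 with the clone as a block).

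Astrocyte markers are given beside Grm5 and Gria1. Gfap, Aqp4 and Slc1a2, the last from the transporter list, were picked after the values were seen. They and both receptors were lowest in D7 among control clones at DIV4. Gfap, the astrocyte filament gene, read 0.172, 98.0 and 234 in control DIV4 (D7, D3 and E8) and 82.8, 78.2 and 135 in null DIV4 (3F, D6 and 7F). Slc1a2, which encodes the main astrocyte glutamate transporter, read 0.114, 26.5 and 30.1 in control DIV4 and 3.59, 5.60 and 2.61 in null DIV4. Aqp4, the astrocyte water channel, read 0.0982, 2.94 and 6.62 in control and at most 0.197 in null. The 10 astrocyte markers summed to between 93.9 and 621 in control DIV4 and between 434 and 506 in null DIV4. Of these 10, 7 were tested, and limma called 0 between the genotypes at DIV4 (3.63% of all features). Their median log2 difference at DIV4, null minus control, was 0.94, opposite in sign to that of Grm5 (-2.34). Gjb6, another astrocyte marker, was at most 0.0421 in any library. The part of astrocyte content in the Grm5 and Gria1 values was not tested.

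Other metabotropic genes were low. Highest library values were 0.0149 for Grm2, 0.0317 for Grm6, 0.210 for Grm4, 0.406 for Grm3 and 0.678 for Grm8. In the fit without a filter, Grm8 (mGlu8) rose in null by 0.37 at DIV2 and 0.49 at DIV4, and was higher in null than in control at DIV4 by 0.48, where 1.61% of all features were called in that fit (limma, adjusted p = 0.00533, 0.000585 and 0.00376).

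Among the GABA-A subunits, Gabrg1 was abundant and Gabra3 lower. Gabrg1, which encodes the γ1 subunit, is on chr5:70751047-70842617 (minus strand). It read 6.38, 7.83 and 5.70 in control OPCs, 10.3, 8.34 and 16.6 at DIV2 and 4.60, 4.91 and 9.40 at DIV4. In null it read 7.13, 11.6 and 10.1 in OPCs, 3.53, 10.9 and 5.95 at DIV2 and 2.84, 2.99 and 2.60 at DIV4. Between OPC and DIV2 the level was higher later in the 3 control clones and lower later in the 3 null clones, and the DIV4 null libraries lay below every other Gabrg1 value. In null the DIV4 change was -1.45 (log2, SE 0.33; limma, adjusted p = 0.00404), and the call was lost without 7F (adjusted p = 0.0677) and on deposited values (log2 change -1.10; adjusted p = 0.0692). In control the changes were 0.70 and -0.11 (limma, adjusted p = 0.12 and 0.825). The interactions, -1.23 at DIV2 and -1.34 at DIV4 (SE 0.46; limma, adjusted p = 0.268 and 0.146), were not called.

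Gabra3, which encodes the α3 subunit, was higher in null OPCs and fell with differentiation. Its mean over the 18 libraries was 1.42, and under 1 when the null OPC libraries are set aside. It thus passed the filter through the group in which it was highest, which limits its calls. Gabra3 (chrX:72432681-72656848, minus strand) read 2.32, 1.38 and 0.872 in control OPCs and 2.77, 3.88 and 4.04 in null OPCs, without overlap. At DIV2 it read 0.254, 0.563 and 0.276 in control and 0.934, 0.686 and 1.35 in null, and at DIV4 0.235, 0.934 and 1.01 in control and 1.47, 0.912 and 1.57 in null. The genotypes overlapped at DIV4 and not at DIV2. The difference in OPCs was 0.88 (log2, SE 0.25; limma, adjusted p = 0.0394) and 1.72 on deposited values, where the median of all features was 1.36. That call was lost without D3 (limma, adjusted p = 0.0663), E8 (adjusted p = 0.154), 3F (adjusted p = 0.0868), D6 (adjusted p = 0.126) or 7F (adjusted p = 0.22), with a pseudocount of 0.1 (adjusted p = 0.109), without the filter (adjusted p = 0.0601) and with all biotypes summed (adjusted p = 0.116).

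In null the Gabra3 change was -1.20 at DIV2 and -0.98 at DIV4 (limma, adjusted p = 0.00337 and 0.00924). In control it was -0.86 at DIV2 (limma, adjusted p = 0.0187) and -0.54 at DIV4 (adjusted p = 0.123), and on deposited values the DIV2 change was 0.15, where the median of all features was 1.80. The control call was lost without D7 (limma, adjusted p = 0.112) and with protein-coding scaling (adjusted p = 0.0859). The null calls were lost on deposited values (limma, adjusted p = 0.059 at DIV2 and 0.15 at DIV4), at DIV4 with protein-coding scaling (adjusted p = 0.136), without D6 (limma, adjusted p = 0.0621 at DIV2 and 0.129 at DIV4) and at DIV4 without 7F (adjusted p = 0.0786).

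Gabrb2 (β2) reached 1.02 ± 0.0638 in null OPCs against 0.306 ± 0.251 in control OPCs, and at most 0.371 in any differentiated library. In the fit without a filter it was higher in null OPCs by 0.65 and fell in null by 0.75 at DIV2 and by 0.66 at DIV4 (limma, adjusted p = 0.00468, 0.000995 and 0.0015). Of the low members, Gabra4 (α4) was also higher in null OPCs in that fit (log2 difference 0.22; limma, adjusted p = 0.00923), where 4.58% of all features were called.

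Further GABA-A genes stayed under 1 in every library. Gabra2 (α2) came nearest at 0.930. Highest library values were 0.441 for Gabrp, 0.358 for Gabrb1, 0.339 for Gabrq, 0.315 for Gabrg3, 0.292 for Gabra4 and 0.264 for Gabrr2. They were 0.142 for Gabra5, 0.124 for Gabre, 0.0659 for Gabrr1, 0.0400 for Gabrd and 0.0234 for Gabra6, and Gabrr3 was listed at 0 in the 18 libraries.

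Of the GABA-B pair, Gabbr1, which encodes the GABA-binding subunit, rose with differentiation in both genotypes. Gabbr1 (chr17:37045966-37075067, plus strand) read 4.29, 8.65 and 3.96 in control OPCs, 7.84, 6.83 and 9.27 at DIV2 and 13.7, 10.2 and 9.48 at DIV4. In null it read 3.06, 2.64 and 2.89 in OPCs, 7.78, 5.68 and 6.64 at DIV2 and 5.36, 6.46 and 6.23 at DIV4. The control libraries at DIV4 lay above the null libraries at DIV4, and the null OPC libraries below every other Gabbr1 value. The rise at DIV4 was 0.92 in control and 0.86 in null (log2, SE 0.22; limma, adjusted p = 0.00672 and 0.00868), and at DIV2 it was 0.50 in control (adjusted p = 0.0986) and 0.99 in null (adjusted p = 0.00464). The difference between genotypes was -0.71 in OPCs (limma, adjusted p = 0.0527) and -0.78 at DIV4 (adjusted p = 0.0639). On deposited values the OPC difference was 0.75 (limma, adjusted p = 0.0378). That lies below the median of all features on that scale, where 77.9% of all features were called. Without E8 the OPC difference was called (limma, adjusted p = 0.0477), and without D3 the DIV4 difference (adjusted p = 0.0145). Without D7 the OPC difference was called (limma, adjusted p = 0.0346) and the control rise at DIV4 was not (adjusted p = 0.115). The null call at DIV2 was lost without 3F (limma, adjusted p = 0.0702) or 7F (adjusted p = 0.0637), and that at DIV4 without D6 (adjusted p = 0.101) or 7F (adjusted p = 0.0938). With noncoding transcripts of the gene summed in, the DIV4 calls were lost in control (limma, adjusted p = 0.0952) and null (adjusted p = 0.0736).

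Gabbr2, which encodes the partner that couples to the G protein, did not pass the filter. It read 0.0340, 0.175 and 0.418 in control OPCs, 0.0169, 0.274 and 1.79 at DIV2 and 0, 1.25 and 2.76 at DIV4, with D7 the lowest each time. In null it reached 1.62 in D6 at DIV4. At control DIV4 the mean of Gabbr2 was 1.34 ± 1.38, beside 11.1 ± 2.28 for Gabbr1.

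Grina encodes a membrane protein named for an association with the NMDA receptor, and Grid2ip a synaptic scaffold protein. Grina read 15.6, 37.6 and 22.3 in control OPCs, 30.2, 29.4 and 29.6 at DIV2 and 35.2, 37.0 and 35.0 at DIV4. In null it read 18.9, 24.3 and 26.5 in OPCs, 51.4, 34.4 and 38.9 at DIV2 and 40.7, 39.8 and 39.8 at DIV4. Its OPC level was exceeded at both times by the 3 null clones. In null it rose by 0.81 at DIV2 and 0.78 at DIV4 (log2, SE 0.23; limma, adjusted p = 0.0218 and 0.0224), and in control the changes were 0.32 and 0.58 (adjusted p = 0.328 and 0.0801). Both null calls were lost without any single null clone, with limma adjusted p of 0.311, 0.0668 and 0.0892 at DIV2 and 0.161, 0.102 and 0.095 at DIV4 without 3F, D6 and 7F. Grid2ip was at most 0.413, and in the fit without a filter it was called lower at control DIV2 (-0.38; limma, adjusted p = 0.000458).

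Genes that work with the receptors were counted from lists, to be read against the share of all features called: 17.8% higher and 13% lower at control DIV2, 15.2% and 12.7% at control DIV4, 12.5% and 10.2% at null DIV2, and 14.9% and 13.6% at null DIV4. Of 14 auxiliary subunits of AMPA and kainate receptors 9 were tested, and in control 1 rose and 5 fell at DIV2, and 1 rose and 3 fell at DIV4. In null 1 rose and 1 fell at DIV2, and 2 rose and 1 fell at DIV4. Between the genotypes limma called none, with 3, 1 and 1 at an unadjusted p under 0.05 in OPCs, at DIV2 and at DIV4. Neto1, a kainate auxiliary subunit, fell from 5.49 ± 2.83 in control OPCs to 0.846 ± 0.263 at DIV4 and from 5.25 ± 2.45 to 0.541 ± 0.0556 in null (log2 changes -1.71 and -1.95; limma, adjusted p = 0.00207 and 0.000612). Cacng5, an AMPA auxiliary subunit, rose in null from 0.798 ± 0.113 to 6.12 ± 0.295 (limma, adjusted p = 0.0401) and stood at 1.73 ± 1.56 and 12.1 ± 10.8 in control (adjusted p = 0.0511). The list's median changes at DIV4 were -0.47 in control and 0.16 in null.

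Of 14 scaffold genes 8 were tested. In control 1 rose and 1 fell at DIV2 and 1 rose at DIV4, and in null 1 rose at DIV2 and 3 at DIV4. Dlg1, which encodes SAP97, rose from 3.97 ± 0.605 to 17.3 ± 7.14 in control and from 4.76 ± 0.196 to 15.1 ± 0.876 in null at DIV4 (limma, adjusted p = 6.25e-05 and 0.00011). Pick1, a GluA2-binding protein, rose in null by 0.91 (limma, adjusted p = 0.0241). Homer1, which links mGlu5 to calcium stores, was 11.8 ± 1.84 in control and 6.63 ± 1.02 in null at DIV2 (log2 difference -0.74; limma, adjusted p = 0.0371), where 0.786% of all features were lower. In OPCs 2 scaffolds were lower in null by a called amount (4.44% of all features), Dlg3 (-0.86) and Dlg4 (-0.63), which were named after their values were seen. Median scaffold changes at DIV2 were 0.13 in control and 0.14 in null.

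Of 12 partners of GABA receptors 8 were tested, and 3 rose and none fell in each of the 4 comparisons with OPCs, with medians of 0.47 and 0.41 in control and 0.38 and 0.27 in null at DIV2 and DIV4. Plcl1, which binds GABA-A receptors, rose from 1.04 ± 0.337 to 7.69 ± 5.70 in control and from 0.847 ± 0.0884 to 6.02 ± 0.847 in null at DIV4 (limma, adjusted p = 0.000566 and 0.000352). Trak2, a trafficking protein, rose by 1.02 and 1.04 (limma, adjusted p = 0.000542 and 0.000316). Between the genotypes limma called none of the 8, with 0, 1 and 0 at an unadjusted p under 0.05 in OPCs, at DIV2 and at DIV4.

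Of 10 transporters of glutamate, GABA and chloride 5 were tested. In control 2 rose at DIV2 and at DIV4, in null 2 and 3, and none fell, with medians at DIV4 of 1.33 in control and 1.45 in null. Slc12a2, which encodes the chloride importer NKCC1, rose from 12.5 ± 5.14 to 65.6 ± 49.4 in control and from 16.1 ± 2.90 to 45.7 ± 9.37 in null at DIV4 (limma, adjusted p = 0.00174 and 0.0135).

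Of 10 genes of glutamate and GABA metabolism 7 were tested, and 3 rose in control at each time, against 1 and 2 in null, and none fell. Abat, the enzyme that breaks down GABA, rose from 8.46 ± 3.54 to 36.1 ± 3.79 in control and from 6.91 ± 1.96 to 20.3 ± 4.62 in null at DIV4 (limma, adjusted p = 0.000104 and 0.000569). Glul, glutamine synthetase, rose by 1.14 and 1.52 (limma, adjusted p = 0.0228 and 0.00395). Gad1 and Gad2, which encode the enzymes that make GABA, had group means of at most 0.335 and 0.445. Of the 3 RNA editing genes, Adar was tested and rose in null at DIV4 by 0.84 (limma, adjusted p = 0.000352), with a control change of 0.32 (adjusted p = 0.0861).

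The marker lists differed between the stages. Of 9 tested OPC markers 7 fell in control at DIV2 (13% of all features). In null 6 fell (10.2%) and 1 rose (12.5%). Of 10 tested oligodendrocyte markers 9 rose in control (17.8%) and 7 in null (12.5%). At DIV4 3 of the 9 OPC markers fell in control (12.7% of all features) and 4 in null (13.6%). All 10 oligodendrocyte markers rose in control (15.2%) and 6 in null (14.9%). The 14 neuron markers summed to 12.9 to 39.1 in OPCs and 50.3 to 116 in the differentiated libraries, and 3 were tested, of which Tubb3 and Elavl3 rose in both genotypes. The vesicular transporters of glutamate and GABA neurons, Slc17a7, Slc17a6 and Slc32a1, were at most 0.0241, 0.0130 and 0.0215 in any library, and Rbfox3 at most 0.186. The 8 microglia markers summed to at most 4.57, with C1qa at 0 in each library, and the 1 tested, P2ry12, was higher in null DIV4 (1.15; limma, adjusted p = 0.0173). The 9 pericyte and mesenchymal markers, which include the OPC gene Cspg4, summed to 25.9 or less, and Lum and Col1a2 were at most 0.0668 and 0.0621. The part of these cell types in the receptor values was not tested beyond the values given.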

How the data were processed

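RNA was measured in 18 total-RNA libraries, made with a stranded kit after rRNA removal per the labels' protocols. The deposited values are TPM per Ensembl transcript, made by the authors; STAR, Picard and mm10 are named in the submitters' processing notes, and the quantifier, annotation and filters are not given in the sources used here. The deposited transcript length, a column of another kind, was not used in any test. The members and gene lists were chosen with earlier results of these data known.

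TPM was summed by gene name, separately for protein-coding and other biotypes (46988 features, after 25 names turned into dates were restored), and divided by median-of-ratios factors. Features with a mean of at least 1 over the 18 libraries (15525) were fitted as log2(rescaled TPM + 1) with limma 3.58.1 in R 4.3.3 (1 mean per group, shared spread, eBayes with trend; Benjamini-Hochberg). The fit was also run on simulated data with independent noise for each library and changes set in null DIV4 alone. That run held no clone correlation and no shift in composition, so it cannot bear on the scaling of the control OPC libraries. Its outcome is not reported here. Depth is unknown, so precision rests on 3 clones per group. Python 3.11.15, numpy 2.4.6, pandas 2.3.3 and matplotlib 3.10.9 were used. Coordinates and exons are from GENCODE M21 (GRCm38), which holds 96.6% of the transcript identifiers and may not be the authors' release, and upstream windows from RefSeq.

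Members with a group mean of at least 1 are named with levels, the others with their highest library value. Values in every library are given for members called between genotypes and for the 8 largest called changes at DIV4, and other such values were chosen after they were seen. In each list of partner genes, the 2 largest called changes at DIV4 and genes called between genotypes at DIV2 or DIV4 are named. Kctd12 and Lhfpl3 have no protein-coding row under those names. Some members and partner genes are counted but not reported here. Libraries of a clone at different stages come from the same line, which is the pairing used as a block. Deviations from group means correlated at 0.109 within clones and -0.0545 between clones on average. Alternatives covered scaling, pseudocount, filter, biotypes, libraries fitted, trend, block and leaving out each clone. Factors from 3743 abundant coding features and the DIV4 against DIV2 comparisons were added after the data were seen.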

Additional observations from a re-analysis of the deposited data

Results flagged for a closer look

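Among the partner genes, the change of Dlg4, which encodes the scaffold PSD-95, from OPC to DIV4 differed between the genotypes by the interaction test (0.88 on the log2 scale; limma, adjusted p = 0.0371). Dlg4 was 6.89 ± 0.532 (SD, n = 3) in control OPCs and 5.33 ± 0.530 at control DIV4, and 4.12 ± 0.808 and 6.5 ± 0.367 in null. The change was -0.32 in control (limma, adjusted p = 0.102) and 0.56 in null (adjusted p = 0.00748). Dlg4 was the 1 gene called of 8 tested scaffolds, and no gene of the other partner lists was called. Of all features 1.96% were called in this comparison, and 0.142% and 0.116% without 3F and 7F. The control OPC libraries enter this comparison. The Dlg4 result under other scalings or without single clones is not given here. No receptor gene met this rule.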

How the results depend on the processing

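Of 31 called changes of single receptor genes, 4 kept their direction and their side of the threshold in each alternative run, among them Gria2 at null DIV2 and Grik2 and Grm7 at control DIV2. Reversals occurred for 6, each on deposited TPM alone: Grik3 in null OPCs (0.46), Gabra3 (0.15), Grid1 (1.27), Grik4 (0.85) and Grm5 (0.30) at control DIV2, and Grik4 at control DIV4 (1.20). On that scale Grid1 and Grik4 were called higher at control DIV2 (limma, adjusted p = 0.00269 and 0.0329), where 84% of all features were called. Grik4 was also called higher at control DIV4 (limma, adjusted p = 0.0041), where 88.8% were called. Each of the 6 comparisons reads the control OPC libraries, in which protein-coding rows held 5.05% to 9.0% of the deposited TPM. The cause of the reversals was not tested.

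Counts of members called moved as follows. The share of all features called also moved between runs, so a count alone is not a result about the receptors. For runs listed without a share, that share is not reported here. The cause was not tested where the scaling or the samples fitted changed. On deposited TPM the counts were 12 between genotypes in OPCs (77.9% of all features) and 1 at DIV4 (2.69%). They were 13 at control DIV2 (84%) and 16 at control DIV4 (88.8%). For the interactions at DIV2 and DIV4 the counts were 11 (67.7%) and 12 (69%). With every library scaled to the same protein-coding total they were 1 between genotypes at DIV4 and 10 at null DIV4. Quantile normalization gave 1 for the interaction at DIV4. Without a filter, where more genes are tested, they were 6 between genotypes in OPCs (4.58% of all features). In that run they were 13 at null DIV2 (9.06%) and 11 at null DIV4 (11.9%). With a mean of at least 5, where fewer are tested, they were 4 and 3 at control DIV2 and DIV4 and 5 at null DIV2. With only the compared libraries fitted they were 0 between genotypes in OPCs and 0 at DIV4, 3 and 0 at control DIV2 and DIV4, and 5 at null DIV4 against DIV2. Summing all biotypes gave 1 between genotypes in OPCs and 3 at control DIV4.

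Leaving out each clone gave 0 to 6 members between genotypes in OPCs (1.88% to 16% of all features). It gave 0 to 2 at DIV2 (0.638% to 2.87%) and 0 to 2 at DIV4 (0.618% to 5.98%). It gave 6 to 7 at control DIV2 (17.8% to 34.3% of all features) and 2 to 6 at control DIV4 (14.7% to 31.9%). In null it gave 4 to 9 at DIV2 (8.59% to 26.8%) and 0 to 8 at DIV4 (13.1% to 32.3%). The interactions had 0 at DIV2 (0.0773% to 1.55%) and 0 at DIV4 (0.116% to 6.86%). For DIV4 against DIV2 it gave 0 in control (0.0386% to 1.43%) and 0 to 1 in null (0.0129% to 3.76%). A group left with 2 clones is assumed to vary like the others. With the clone as a replicate block the pairing gave 2, 1 and 2 between genotypes, 8 and 5 in control, 9 and 8 in null and 0 for the interactions, and it changed 6 calls, 5 of which are given beside their results.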
